A study of Bos taurus with 8 samples.

Results

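bta-miR-224 and bta-miR-452 are a pair of miRNAs encoded side by side inside GABRE, the gene of the epsilon subunit of the GABA-A receptor, on the X chromosome of cattle. They were taken by name from a table of 1028 bovine miRNAs measured in extracellular vesicles (EVs) of follicular fluid (FF), and both passed the filter on low values that left 243 miRNAs for comparison. The pair was selected on its shared host gene and on season results already known for miR-452, so its season values are given here as a description and without a p-value. Small-RNA libraries came from cows in summer (SUM, 4 libraries) and in winter (WIN, 4 libraries), each library a pool of FF from 2 cows. All cows were non-pregnant crossbred Bos taurus beef cows, and in both seasons they carried a progesterone device and received a GnRH analog and FSH before the follicles were aspirated. The same cows were sampled in both seasons, but the labels do not say which pools match, and the ages of the cows are not given in the sources used here. Both seasons were sampled at one site in one year, so that temperature and anything else that changed between the sessions cannot be told apart.

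miRNAs that lie inside a host gene are often cut from the transcript of that gene, and neighbours can come from one common precursor. The mature levels still depend on how each hairpin is processed, loaded and turned over, so that neighbours need not be equal. In mouse granulosa cells, the cells that line the follicle and feed the oocyte, miR-224 is induced by TGF-beta and represses Smad4, a mediator of TGF-beta signaling, with effects on proliferation and estradiol release. miR-452 is best known from tumor cells and from the neural crest of the mouse embryo. An EV preparation reports what the cells around the follicle and in the blood release. The values used here are relative to the other miRNAs of a library and give no absolute amount. In a lower value, fewer cells releasing that miRNA and less of it in each vesicle cannot be told apart.

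The values were read counts scaled to library size and adjusted by trimmed means of M-values (TMM-adjusted CPM), and the whole reads behind them were recovered. Between 214004 and 902642 miRNA reads stood behind each SUM library and between 235340 and 1689467 behind each WIN library. SUM replicate 3 and WIN replicate 1 were the shallowest, so that 1 read was worth 4.02 and 3.83 CPM there, against 0.567 to 2.09 CPM in the others. Intervals given for single libraries cover counting error only, as PCR copies are not independent molecules.

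miR-224 was a miRNA of moderate abundance in every library. In SUM it had 1291, 1515, 776 and 2135 CPM (replicates 1 to 4), from 617, 1100, 193 and 1700 reads. In WIN it had 865, 1088, 994 and 1288 CPM, from 226, 859, 1753 and 743 reads. The seasons overlapped: 3 SUM libraries lay above the highest WIN library, replicate 1 by a small margin, and SUM replicate 3 lay below all of WIN. miR-224 ranked 43rd to 59th of all miRNAs in the SUM libraries and 50th to 60th in the WIN libraries, and thus kept much the same place in both seasons. SUM libraries averaged 1429 ± 563 CPM and WIN libraries 1059 ± 178 CPM (SD, 4 libraries a season), a ratio of 1.35. On the log2(CPM + 1) scale of the fit over all 243 miRNAs, the difference was 0.36 (standard error 0.32).

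miR-452, the less abundant neighbour, had the wider gap between season means. In SUM it had 374, 499, 113 and 466 CPM (replicates 1 to 4), from 179, 362, 28 and 371 reads. In WIN it had 130, 98.8, 121 and 118 CPM, from 34, 78 and 68 reads in replicates 1, 2 and 4 and more in the deeper replicate 3. Replicates 1, 2 and 4 of SUM were high and close to each other, while SUM replicate 3 lay within the WIN range. The WIN libraries were nearly level, with a highest value 1.32 times the lowest, against 4.43 times in SUM. miR-452 ranked 75th to 120th in the SUM libraries and 117th to 135th in the WIN libraries. SUM libraries averaged 363 ± 175 CPM and WIN libraries 117 ± 13.2 CPM (SD, 4 libraries a season), a ratio of 3.10 and a log2 difference of 1.43 (standard error 0.43). Without SUM replicate 3 the SUM mean was 446 ± 64.3 CPM (SD, n = 3), and the ratio to WIN was 3.81.

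**Figure D1:**
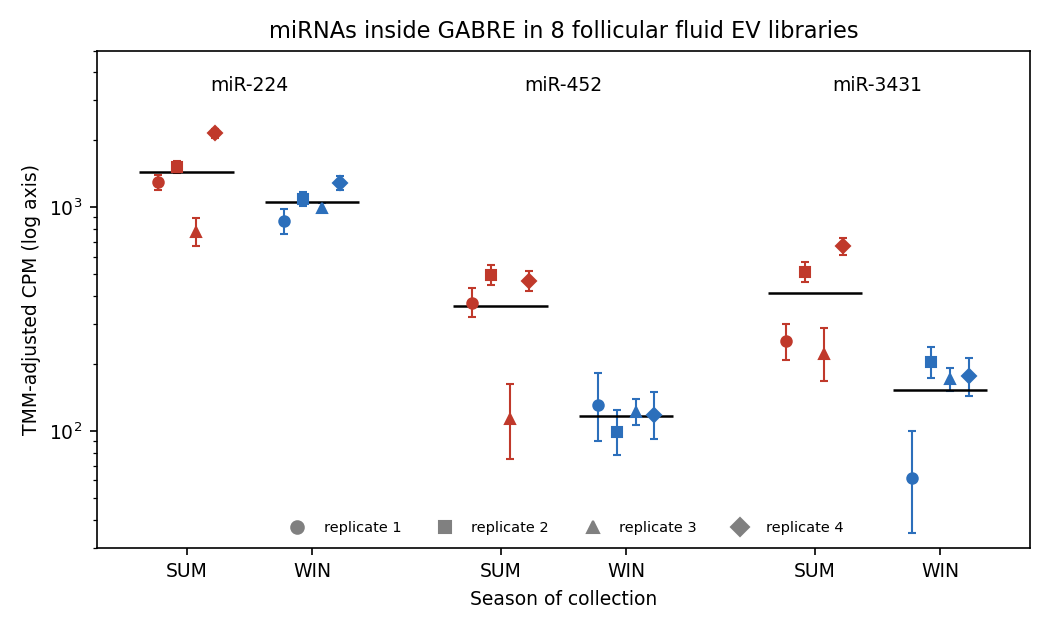
TMM-adjusted CPM (log axis) of miR-224, miR-452 and miR-3431 in 4 SUM libraries (red) and 4 WIN libraries (blue); each point is a library, its bar the exact Poisson 95% interval of its reads, and the black line the season mean. miR-452 was at 374, 499 and 466 CPM in SUM replicates 1, 2 and 4 and between 98.8 and 130 CPM in SUM replicate 3 and the WIN libraries.

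The 28 reads of miR-452 in SUM replicate 3 gave an exact Poisson 95% interval of 74.8 to 163 CPM. The upper end is well below the lower ends of the other SUM libraries, 322 to 449 CPM. This library thus fell short of the other SUM libraries by more than counting error, although it is also the library with the fewest reads. miR-224 was low in the same library, but less so: the median of the other SUM libraries was 4.14 times SUM replicate 3 for miR-452 and 1.95 times for miR-224. The part of depth in this gap was not tested.

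limma's calls, made over all 243 miRNAs, required a Benjamini-Hochberg adjusted p under 0.1 together with more than a 1.5-fold change. Of the pair, miR-452 was called higher in SUM and miR-224 was not called. Over all tested miRNAs, 5.35% were called higher and 2.47% lower in SUM, and nothing is read from the members' count, since the season contrast was in view when they were chosen. Neither of the pair had every SUM library above every WIN library, which 8.23% of the 243 miRNAs did. The call of miR-452 ended when any library but SUM replicate 3 was left out, with log2 differences between 1.21 and 1.48, and was kept at 1.92 without SUM replicate 3. Rescaling to equal summed CPM moved the median log2 difference of all tested miRNAs by -0.18, to -0.17, and relative to that median miR-452 was at 1.41 and miR-224 at 0.34.

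The ratio of both miRNAs within a library does not depend on how libraries are scaled to each other. miR-452 was below miR-224 in 8 of 8 libraries. The log2 ratio of miR-452 to miR-224 averaged -2.63 ± 0.71 (SD, 8 libraries), or 6.19 reads of miR-224 for each read of miR-452 as a geometric mean. It averaged -2.09 ± 0.52 over SUM libraries and -3.17 ± 0.35 over WIN libraries (SD, 4 libraries a season). No test is given for this ratio, which was in view when the pair was chosen. How well each miRNA is captured by ligation and PCR also enters a ratio of 2 different miRNAs, so the ratio is one of reads and not of molecules.

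As a share of the reads of the pair, miR-452 held 22.5%, 24.8%, 12.7% and 17.9% in SUM (replicates 1 to 4). It held 13.1%, 8.32%, 10.9% and 8.38% in WIN. The SUM libraries averaged 19.5% ± 5.35 and the WIN libraries 10.2% ± 2.28 (SD, 4 libraries a season), 9.29 percentage points apart. The seasons overlapped where the 2 shallowest libraries met, SUM replicate 3 at 12.7% (exact Clopper-Pearson 95% interval 8.59 to 17.8) and WIN replicate 1 at 13.1% (9.23 to 17.8). Those intervals rest on 221 and 260 reads of the pair, and each covers the value of the other. Counting alone would give a spread of about 1.51 points between SUM libraries and 1.29 points between WIN libraries, and the SDs above were larger than these in both seasons, by the wider margin in SUM. Without the 2 shallowest libraries, a choice made after the data were seen, the difference was 12.5 points.

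**Figure D2:**
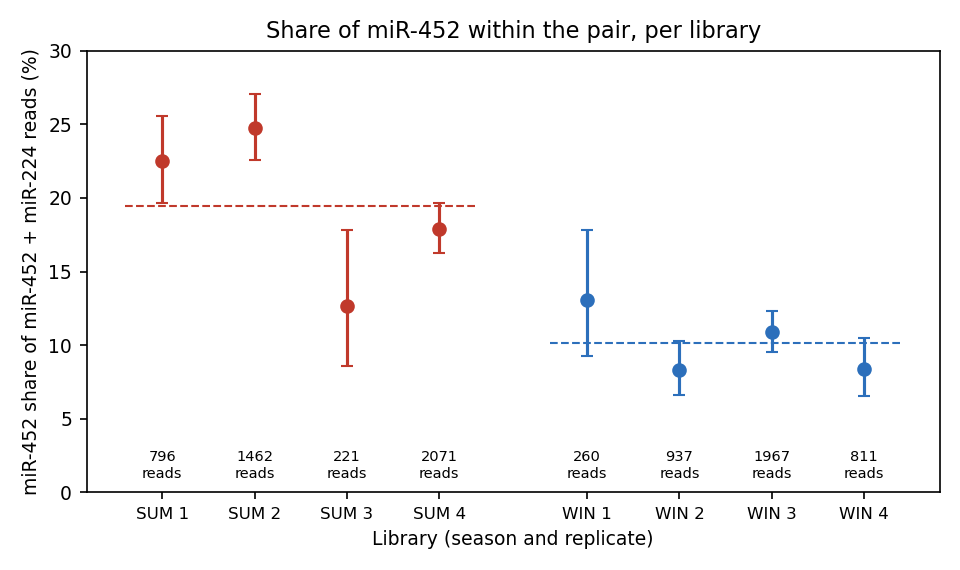
Share of miR-452 in the summed reads of miR-452 and miR-224 (percent) per library, SUM in red and WIN in blue, with exact Clopper-Pearson 95% intervals, the reads of the pair below each point and the season mean dashed. SUM replicates 1, 2 and 4 sit at 17.9% to 24.8%, above the 8.32% to 13.1% of the WIN libraries, and SUM replicate 3 sits at 12.7%.

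RefSeq's annotation of a later assembly (ARS-UCD2.0) places 3 miRNA genes inside GABRE: MIR224, MIR452 and MIR3431. miR-3431, for which no function is stated here, was therefore set beside the pair, and its season values were also known beforehand. In SUM it had 251, 514, 221 and 667 CPM (replicates 1 to 4). In WIN it had 61.3, 203, 170 and 175 CPM. Every SUM library was above every WIN library, though SUM replicate 3 and WIN replicate 2 lay close. SUM libraries averaged 413 ± 214.2 CPM and WIN libraries 152 ± 62.4 CPM (SD, 4 libraries a season), a log2 difference of 1.41 (standard error 0.46), and it was not called by limma. It was called higher under 8 of 20 alternatives, edgeR, DESeq2 and voom among them, against 11 of 20 for miR-452 and 0 of 20 for miR-224, so its calls do not set it apart from miR-452. Its log2 difference was thus nearly that of miR-452, and the ratio of miR-452 to miR-3431 averaged -0.24 ± 0.66 on the log2 scale in SUM and -0.25 ± 0.92 in WIN (SD, 4 libraries a season), with more scatter between libraries than between seasons.

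Among the reads of these 3 miRNAs, miR-224 held 67.4%, 59.9%, 69.9% and 65.3% in SUM and 81.9%, 78.3%, 77.3% and 81.5% in WIN (replicates 1 to 4). The seasons did not overlap in this share, SUM replicate 3 included. The rest of it is miR-452 and miR-3431, whose season values were known beforehand, so nothing is read from the separation. No background was computed for shares among 3 miRNAs. On the unlike measure of log2 ratios, 18.8% of 96 pairs of neighbouring tested miRNAs did not overlap between seasons. The miR-224 share averaged 65.6% ± 4.24 over SUM and 79.7% ± 2.27 over WIN (SD, 4 libraries a season). miR-452 held 15.9% ± 4.61 in SUM libraries and 9.08% ± 2.39 in WIN libraries, while miR-3431 held 18.4% ± 3.57 in SUM libraries and 11.2% ± 3.86 in WIN libraries. In SUM replicate 3 the share of miR-452 was the lowest of SUM at 10.1%, whereas that of miR-3431 was not low at 19.9%. miR-3431 held its lowest share of SUM in replicate 1, at 13.1%, so the library with the smallest share differed between these neighbours.

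**Figure D3:**
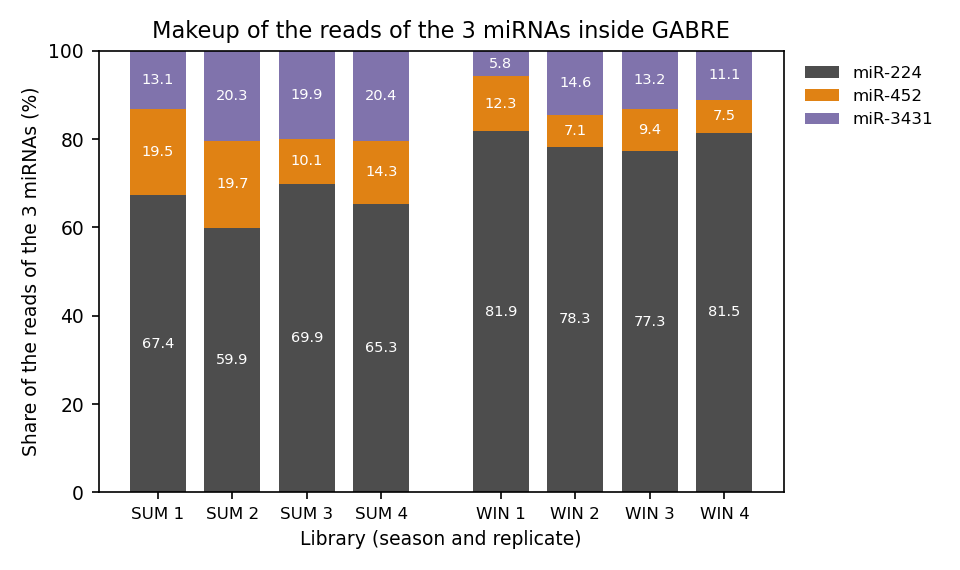
Share of miR-224 (grey), miR-452 (orange) and miR-3431 (purple) in the summed reads of the 3 miRNAs inside GABRE (percent), 1 bar per library. miR-224 holds 59.9% to 69.9% in the SUM libraries and 77.3% to 81.9% in the WIN libraries.

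To see how far neighbouring miRNAs hold a steady ratio in these EVs, all 96 pairs of tested miRNAs within 10 kb of each other were ranked by the SD of their log2 ratio, on log2(CPM + 1), over the 8 libraries. The pair of miR-224 and miR-452 had an SD of 0.70 and the 40th smallest of 96, near the median of 0.74. Among the 41 pairs whose members both averaged above 100 CPM, as these do, it was the 29th smallest against a median of 0.53. Of the others, 70% had a smaller SD. The SD over 8 libraries includes the season difference of the ratio, 1.07 for this pair on log2(CPM + 1). That difference was in view when the pair was chosen, so nothing about the pair is read from its place. The steadiest were let-7a-5p with let-7d (0.15), let-7a-5p with let-7f (0.16) and miR-17-5p with miR-20a (0.19). Next to miR-224 and miR-452 stood miR-23a with miR-24-3p (0.69) and miR-30c with miR-30e-5p (0.72). Some of these miRNAs, such as let-7a and let-7f, are also encoded elsewhere, and their reads cannot be assigned to one locus. The log2 ratio of miR-224 and miR-452 overlapped between seasons, and that of miR-224 and miR-3431 did not; 18.8% of the 96 pairs had no overlap.

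Although their ratio varied between libraries, miR-224 and miR-452 tended to be high and low together over the 8 libraries as a whole. Pearson's r of their log2(CPM + 1) over the 8 libraries was 0.79 (Spearman's rho 0.69), the 14th highest of the 96 neighbouring pairs, whose median was 0.27. Among the 41 pairs whose members both averaged above 100 CPM, it was the 11th highest against a median of 0.41. The season differences, in view when the pair was chosen, enter these uncentred values, so nothing is read from either place. Centred on the season means and pooled, r was 0.80, with SUM replicate 3 the lowest SUM library in both miRNAs. The relation was not seen in both seasons. In WIN, replicate 1 had the least miR-224 (865 CPM) and the most miR-452 (130 CPM). WIN replicate 4 had the most miR-224 (1288 CPM) but 118 CPM of miR-452, below replicates 1 and 3. With each library rescaled to the same summed CPM, the uncentred r over the 8 libraries was 0.59. Summed CPM ran from 860872 to 1222033 in SUM and from 901082 to 967958 in WIN, and its part in the lower r was not tested. These values describe 8 pools that share cows and a scale factor per library.

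**Figure D4:**
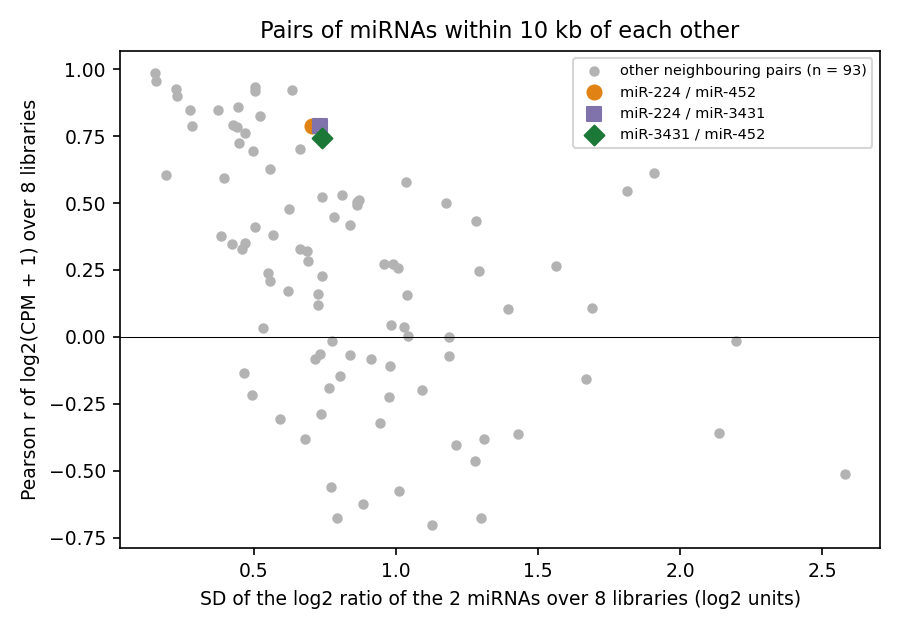
Each point is a pair of tested miRNAs within 10 kb: the SD of their log2 ratio over 8 libraries (x, log2 units) against Pearson's r of their log2(CPM + 1) over the same libraries (y), with the 3 pairs inside GABRE in colour and 93 others in grey. The GABRE pairs lie at an SD of 0.70 to 0.74 and an r of 0.74 to 0.79.

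Neither miRNA was the closest match of the other. Most like miR-224 over the 8 libraries were miR-148a (r = 0.92), the most abundant miRNA of these EVs, miR-2285k (0.91) and miR-191 (0.89), and miR-452 stood 9th of 242. Centred on season means, they were miR-148a (0.92), miR-2285k (0.91) and miR-28 (0.89). Most like miR-452 were miR-25 (0.95), miR-142-5p (0.90), a miRNA of blood cells, and miR-378 (0.90), and miR-224 stood 19th of 242. Centred on season means, miR-191 (0.98), miR-185 (0.96) and miR-148b (0.91) came first. The median r with all others was 0.20 for miR-224 and 0.17 for miR-452.

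Of the 31 tested miRNAs annotated on the X chromosome only, 4 were called higher (12.9%, against 5.35% of all 243) and none lower (against 2.47%) by limma, with a median log2 difference of 0.35 against 0.02 over all 243. One of the 4 is miR-452, whose season result was in view when it was chosen, and the others were miR-222, miR-532 and miR-660, at 1.11, 0.79 and 0.80. The other 27 were not called, and 16 of the 31 differences were positive, against 125 of all 243. The median was therefore the smallest positive difference, that of miR-421, with miR-652 at -0.06 next below it. The list also holds miR-224 (0.36), miR-452 (1.43) and miR-3431 (1.41), the locus whose season results were in view. Nothing about the chromosome is therefore read from its counts or its median. At an unadjusted p below 0.05 limma gave 7 higher and 1 lower of the 31, against 12.3% higher and 9.88% lower of all. On recovered reads edgeR and DESeq2 each called 6 higher and 1 lower and voom 6 higher and 0 lower. Over all miRNAs edgeR and voom each called 8.23% higher and 6.17% lower, and DESeq2 9.91% higher and 9.48% lower of the 232 to which it gave an adjusted p. After rescaling to equal summed CPM the median of the 31 was 0.17, against -0.17 over all. miR-532 and miR-660 lie in one cluster, so these are not separate loci.

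Of 10 miRNAs tied to TGF-beta, activin or SMAD signaling in granulosa cells, mostly from work in mouse and pig, 9 were tested. limma called 1 higher (miR-10b, log2 difference 0.80) and 1 lower (miR-181a, -1.11), against 5.35% higher and 2.47% lower over all 243. In mouse granulosa cells miR-181a represses an activin receptor. The other 7, miR-224 among them, were not called, and the median of the 9 was -0.48. edgeR, DESeq2 and voom each called 2 higher and 3 lower of the 9, where 8.23% to 9.91% of all miRNAs were called higher and 6.17% to 9.48% lower, adding miR-10a (1.02 in limma) to the higher and miR-26b (-0.71) and let-7g (-0.60) to the lower, miRNAs that in pig granulosa cells repress SMAD4 and a TGF-beta receptor. The summed level of the list, most of it miR-10b, was 166318 to 217418 CPM in SUM and 107376 to 118254 CPM in WIN.

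Markers of the cells that could release such EVs were set beside the pair. Each limma call below reads against the same shares over all miRNAs, 5.35% higher and 2.47% lower. For edgeR, DESeq2 and voom these shares were 8.23% to 9.91% higher and 6.17% to 9.48% lower. At an unadjusted p below 0.05 in limma they were 12.3% higher and 9.88% lower. Of the granulosa list, which holds miR-224 itself, 5 of 7 were tested and none was called by limma, with a summed level of 19815 to 31856 CPM in SUM and 18015 to 24886 CPM in WIN. miR-21-5p, miR-202 and miR-375 were its most abundant members. miR-202, a gonadal miRNA, was at a log2 difference of 0.87, had an unadjusted p below 0.05 in limma and was called higher by edgeR, DESeq2 and voom. Of the white blood cell list, 3 of 5 were tested and miR-142-5p was called higher (1.13), while miR-155, of nearly the same level, was at -0.18 and miR-150 at 0.75, neither called, with sums of 728 to 1167 CPM in SUM and 528 to 777 CPM in WIN. miR-142-5p was also among the 3 closest matches of miR-452 above, but not among the 3 closest after centring on season means. Its part in the difference of miR-452 was not tested. The miRNAs of red blood cells (2 of 3 tested) had sums of 5262 to 12731 CPM in SUM and 2439 to 25918 CPM in WIN, and neither miR-451 nor miR-486 was called by limma, edgeR, DESeq2 or voom, with 0 at an unadjusted p below 0.05. Of 5 epithelial miRNAs miR-200a was called higher (1.36), and the other 4, at 0.03 to 0.90, were not, with sums of 5831 to 14149 CPM in SUM and 4299 to 9279 CPM in WIN. Besides miR-200a, miR-429 (0.90) had an unadjusted p below 0.05 in limma, and edgeR, DESeq2 and voom called miR-200a only. Of 2 endothelial miRNAs miR-126-3p was called lower (-1.02) by limma, DESeq2 and voom but not by edgeR, and miR-126-5p was at 0.12 and not called, with sums of 1065 to 2418 CPM in SUM and 2290 to 3595 CPM in WIN. None of the 4 stromal miRNAs, with miR-143, miR-199a-3p and miR-214 the most abundant, was called by any of these tools, 0 had an unadjusted p below 0.05 in limma, and the sums were 39111 to 57232 CPM in SUM and 32591 to 58608 CPM in WIN. miR-122 of liver was called lower by DESeq2 alone and had an unadjusted p above 0.05 in limma, at 2730 to 3842 CPM in SUM and 2690 to 16943 CPM in WIN, where WIN replicate 1 was the highest. No marker of these lists was at 0 in all libraries, and the summed levels of every cell type list overlapped between seasons, those of the white blood cell and endothelial lists by the narrowest ranges.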

How the data were processed

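With CLC Genomics Workbench the authors trimmed the reads and annotated miRNAs from miRBase, on the cattle build ARS-UCD1.2. They deposited a signal per mature miRNA and library, TMM-adjusted CPM. The submitters' processing notes also name bcl2fastq, Bowtie2 2.2.2 and DESeq2. Each value was divided by the smallest value above 0 of its library, and 100% of the quotients were whole within 0.001, which gave the reads. The season fit used limma 3.58.1 (R 4.3.3; empirical Bayes moderation with a mean-variance trend) on log2(CPM + 1) of miRNAs averaging over 10 CPM, without covariates, with Benjamini-Hochberg adjustment over all of them. The script was tested on simulated data. Shares carry exact Clopper-Pearson intervals and reads exact Poisson intervals at 95%. They were computed in Python 3.11.15 (numpy 2.4.6, scipy 1.17.1, matplotlib 3.10.9). A planned exact sign-flip test of the ratio of the pair is not reported, because the ratio was in view when the pair was chosen.

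The members, the lists (X chromosome, TGF-beta and activin, and 7 cell types), tests and alternatives were chosen with earlier results of these data known. Replicates are pools that the labels give as separate samples. Named are the pair, the 3 closest matches of each with and without season centring, the 3 steadiest neighbouring pairs and those adjacent to the pair, and the called members of each list or, where none was called, up to 3 of the most abundant. Of the tested miRNAs, 241 of 243 matched RefSeq's ARS-UCD2.0 annotation, which was used for names and neighbours only, and without strand. A planned list by shared seed was not made, as mature sequences were not used here. Alternatives were pseudocounts of 0.5 and 5, other filters, equal summed CPM, other variance settings, tests of the recovered reads (DESeq2 1.42.0, voom and edgeR 4.0.16), a replicate block, other distances and leaving out each library. Leaving out the 2 shallowest libraries was added after the data were seen.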

Additional observations from a re-analysis of the deposited data

Results flagged for a closer look

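Of 18 season groups of 4 libraries checked for a value far from the rest, 1 stood out, and about 1 in 20 is flagged by chance. miR-3431 held 13.1% of the reads of the 3 GABRE miRNAs in SUM replicate 1, against 19.9% to 20.4% in the other SUM libraries.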

How the results depend on the processing

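The log2 difference of miR-452 was 1.43 and no longer called without the filter on low values or without a variance trend, and 1.21 to 1.92 over the left-out libraries. It was called under 11 of 20 alternatives, edgeR, DESeq2 and voom included, and miR-224 under none of 20, with a positive difference in each. Of all 243 miRNAs, 13 were called higher and 6 lower, against 6 and 2 without the filter, 20 and 15 with edgeR, 23 and 22 with DESeq2, 20 and 15 with voom, 24 and 11 without the 2 shallowest libraries, and 1 and 0 at an adjusted p below 0.05 (30 and 24 at an unadjusted one). Called lower were 11 above a mean of 50 CPM (17 higher) and 22 after rescaling to equal summed CPM (11 higher). Leaving out 1 library gave 0 to 23 higher and 0 to 7 lower: the most in both directions without SUM replicate 3, 2 or fewer higher without SUM replicate 2 or 4 or WIN replicate 2, 3 or 4, and 0 lower without SUM replicate 4 or WIN replicate 2 or 4. The cause of these changes was not tested.

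The replicate numbers were not taken to pair the pools. The r of deviations for same-numbered pools was -0.02, 0.30, 0.06 and 0.24 (replicates 1 to 4): replicates 2 and 4 were each closest to their own number, and replicates 1 and 3 were not. With the replicate block 15 were called higher and 10 lower, miR-452 (1.43) and miR-3431 (1.41) among the higher at the same log2 differences as without it.

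On the log2 scale the ratio of miR-452 to miR-224 differed by 1.08 between SUM and WIN, and the shares by 7.52 to 11.6 points over the left-out libraries. The correlation of the pair was 0.59 after rescaling to equal summed CPM. Among neighbouring pairs whose means both passed 100 CPM, 70% had a steadier ratio than miR-224 and miR-452, against 41.1% of all 95 others. Steadiness here includes the season difference of each ratio. The 28 to 78 reads of miR-452 in SUM replicate 3 and WIN replicates 1, 2 and 4 limit its precision.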
